A study of Mus musculus with 8 samples.

Results

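The 10 genes described here are heat shock chaperones: Hspa1a, Hspa1b, Hsph1, Dnajb1, Hsp90aa1, Hspb1, Hspa8, Hsp90ab1, Hspd1 and Hspe1. They were taken by symbol from the 27923 genes of 8 tables of unique molecular identifier (UMI) counts, and all 10 were found in every table. Single cells of 2 mouse KP lung tumors had been profiled with Seq-Well, which captures the mRNA of cells in microwells on barcoded beads. The Healthy/Tumor Border, whose cells had been photoactivated, is 1 library in each tumor, and the Whole Tumor, taken without photoactivation, is 3 technical arrays. Both mice were of the KP model, which carries p53 fl/fl, and were chimeras made by injecting C57BL/6 embryonic stem cells into albino C57BL/6 blastocysts, so that cells of the host do not carry the model's alleles. At 12 weeks of age they received an adenovirus with Cre under the SPC promoter by the trachea, which restricts recombination to alveolar type II cells, and tumors were dissected 16 weeks later. Tumor slices were labelled with the photoactivatable dye calcein NVOC, dissociated and sorted, and loaded arrays were held at 37 °C for 40 min before lysis. There was 1 mouse for each tumor, 1 of each sex, so tumor, mouse and sex cannot be told apart, and p-values within a class measure only the spread between arrays of 1 mouse. Those between classes also hold how class differences varied between the libraries of both mice, but only for classes found in both tumors.

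Heat shock chaperones bind unfolded protein and help it to fold, to reach its compartment or to be degraded. Under heat or other protein stress, heat shock factor 1 (HSF1) trimerizes, binds heat shock elements in promoters and drives the inducible members within minutes, whereas the constitutive members serve folding in unstressed cells. Tissue dissociation and warm handling are known to induce both these genes and immediate early genes such as Fos and Jun. Hspa1a and Hspa1b encode the inducible cytosolic Hsp70 proteins, Dnajb1 is the J-domain co-chaperone that loads them with clients, and Hsph1 is a nucleotide exchange factor of the same cycle. Hspa8 is the constitutive relative of Hspa1a, Hsp90aa1 and Hsp90ab1 are the inducible and the constitutive cytosolic Hsp90, Hspb1 is a small chaperone that holds unfolded protein without ATP, and Hspd1 and Hspe1 are the mitochondrial chaperonin and its lid.

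The promoters of 7 of the members had an entry among the RefSeq sequences of GRCm38.p6, with 10 windows of 250 bases upstream of a start site. The heat shock element is made of inverted GAA units, and 2 adjacent units were searched for as GAANNTTC and TTCNNGAA, which read the same on both strands, and 3 units as GAANNTTCNNGAA or TTCNNGAANNTTC, each of which contains both of the shorter motifs. At least 1 pair of units was found in 12.8% of all 32851 windows of that length, and 3 units in 0.466%. The stretches below are shown because they hold the units of the members, which are in capitals, and because they show how alike Hspa1a and Hspa1b are.
Hspa1a, chr17:34972243-34972270, minus strand: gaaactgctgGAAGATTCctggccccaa
Hspa1b, chr17:34959325-34959352, minus strand: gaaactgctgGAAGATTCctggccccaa
Hsph1, chr5:149636352-149636379, minus strand: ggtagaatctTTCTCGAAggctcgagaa
Hspb1, chr5:135887801-135887830, plus strand: aGAAGTTTCcagatgggggcaGAACCTTCc
Hspe1, chr1:55088053-55088082, plus strand: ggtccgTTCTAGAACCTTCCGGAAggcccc
Hspd1, chr1:55088053-55088082, minus strand: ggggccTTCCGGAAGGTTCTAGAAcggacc
The whole window of Hspa1a, with the same unit in capitals, is this:
Hspa1a, chr17:34972157-34972406, minus strand: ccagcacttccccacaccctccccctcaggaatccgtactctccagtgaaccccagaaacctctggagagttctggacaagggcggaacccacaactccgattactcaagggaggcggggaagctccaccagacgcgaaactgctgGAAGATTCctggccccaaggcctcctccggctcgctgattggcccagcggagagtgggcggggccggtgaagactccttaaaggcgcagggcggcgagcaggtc
The windows of Hspa1a and Hspa1b differ at 3 of 250 bases. The genes lie 9951 bases apart on the minus strand of chromosome 17, at chr17:34969190-34972156 and chr17:34956436-34959238 in GRCm38. Because the genes are near-identical copies, how the reads of the pair were shared between them by alignment is uncertain. Hspd1 (chr1:55077835-55088243) and Hspe1 (chr1:55088132-55091307) start on opposite strands and overlap by 112 bases, so their stretch is 1 element of 4 adjacent units read on both strands. In a further Hspd1 window, and in both Dnajb1 windows, these letters were not found, which says nothing of the factor.

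Of 4343 barcodes, 3894 had at least 200 genes, and 3348 of these were placed in 12 classes by counting which of 12 lists of 8 marker genes each barcode expressed. A class was named for its list, and in each class at least 1 of its own markers, and none of another class, was among the 10 leading genes. Only 1 marker, Cdh5, led the endothelial-like class. Barcodes led by major satellite transcripts such as Gm10801 had a median of 385 UMIs and are not a cell type. Of the gated barcodes, 1039 also held 2 markers of another class, 81 of 164 among the Krt+ tumor-like barcodes. Library totals ran from 405627 to 2029200 UMIs, with array 2 of Whole Tumor 2 the shallowest, and 10 barcode sequences occurred in more than 1 library. The numbers in the cell names inside all 8 tables are those of the other tumor, and the sample labels were followed. The barcodes under each label add up to the cell numbers that the study states for that tumor and region.

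UMIs were summed for each class in each library, where a sum needed at least 10 barcodes, and are given as CPM, the UMIs of a gene per 1000000 UMIs of that sum. Which classes reached that number differed between the tumors. Krt+ tumor-like sums came only from Whole Tumor 1, alveolar macrophage-like and B-like sums only from Tumor 2, and only neutrophil-like and satellite-transcript sums came from all 4 combinations of tumor and region. A contrast between classes that do not meet in the same library therefore rests on the classes that both tumors share. The p-values of Krt+ tumor-like, alveolar macrophage-like and B-like cells hold no spread of these classes between mice. Across the 7 classes with sums in at least 3 libraries, 34 sums in all, each class was set against the mean of the other 6 with the library as a block, and 5314 genes were tested.

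**Figure D1:**
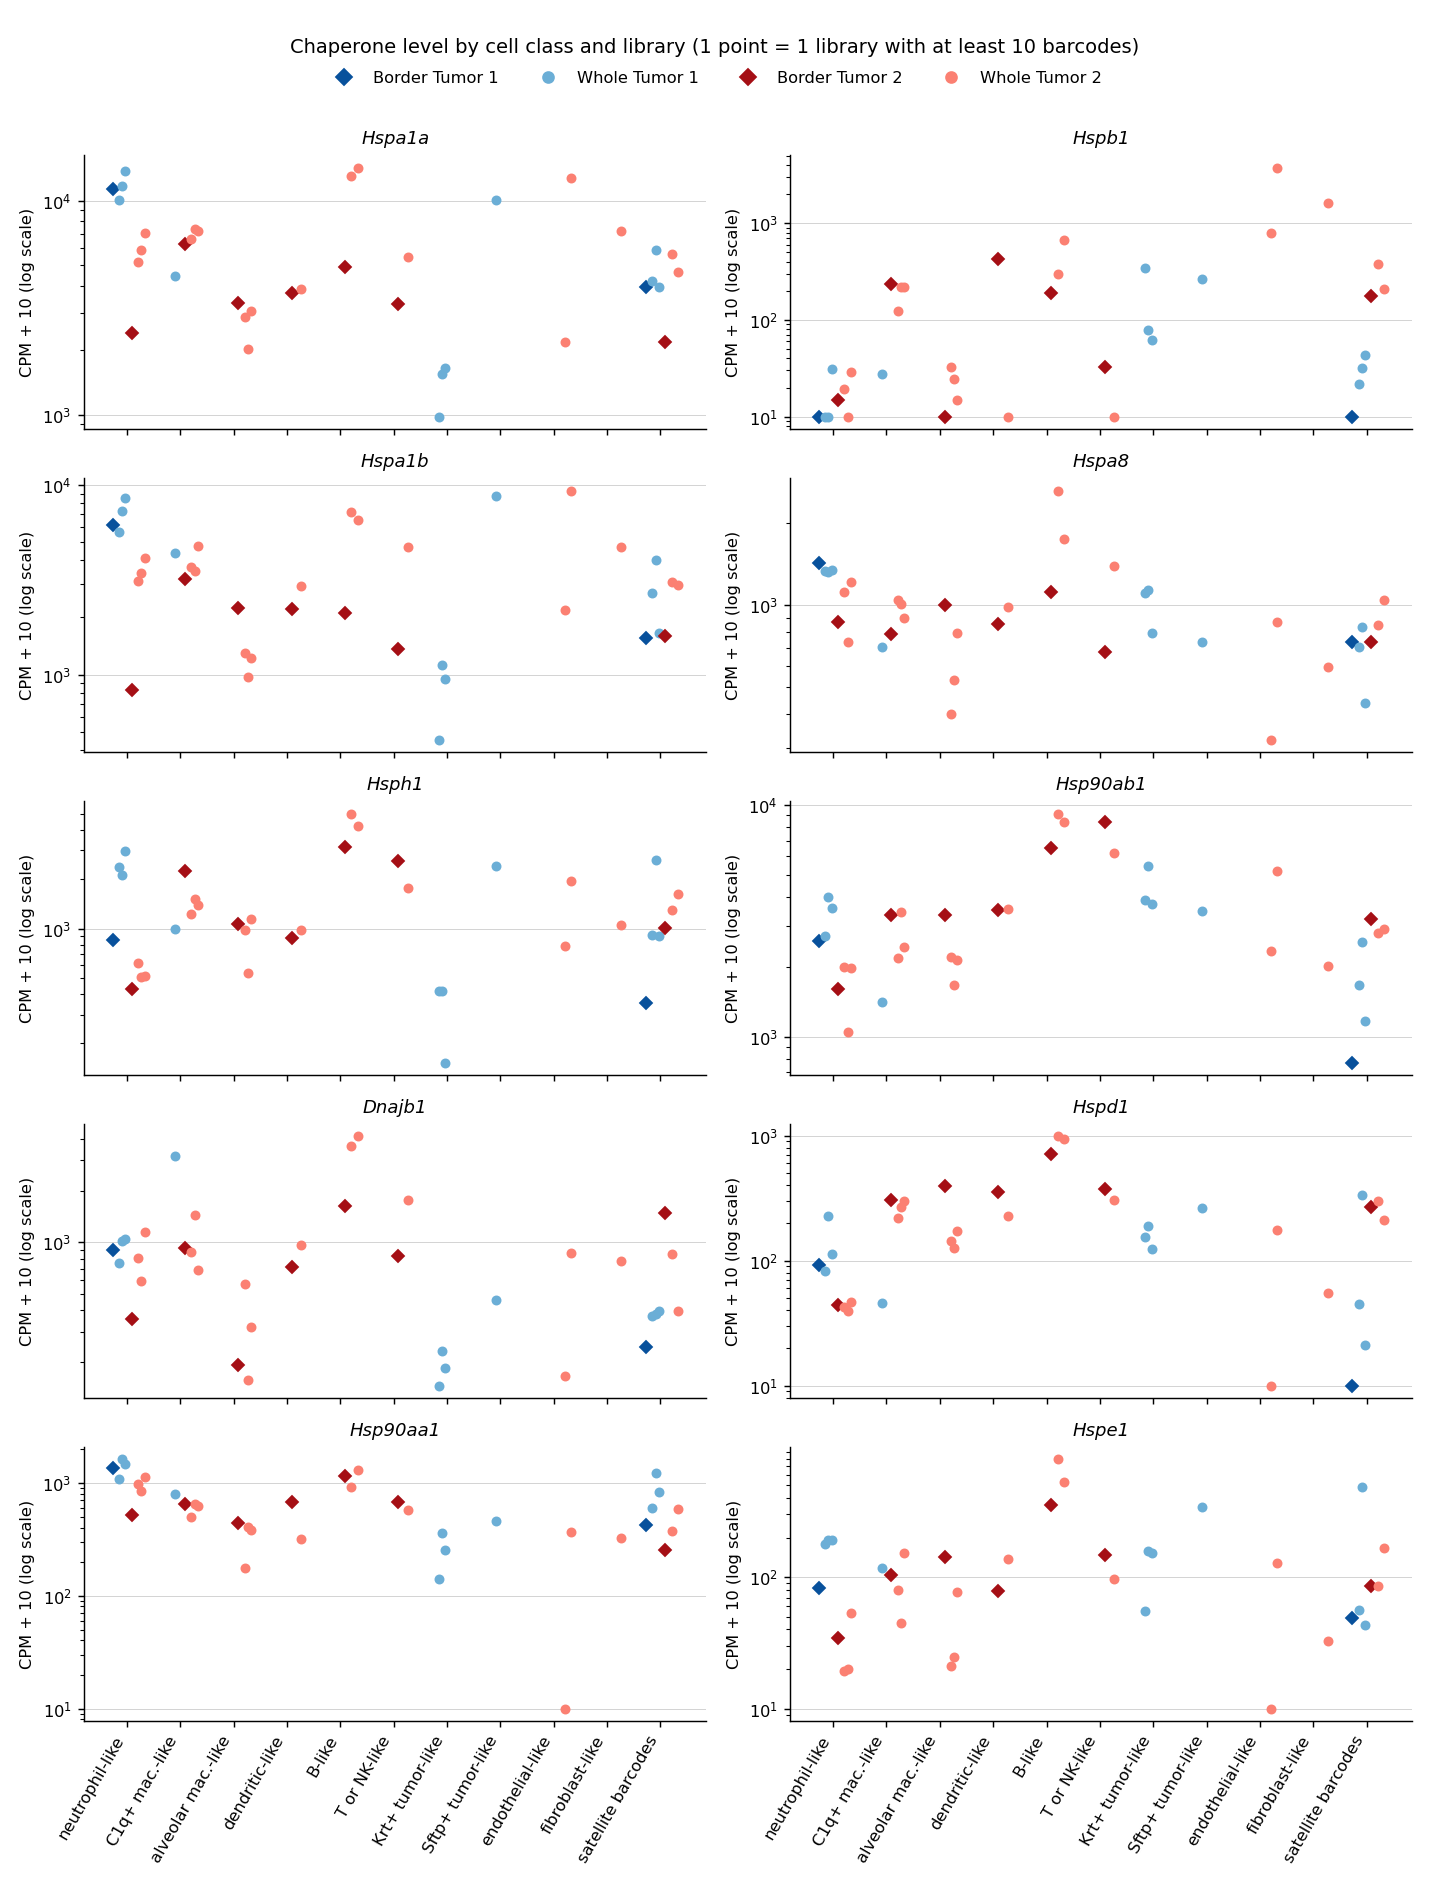
Level of each of the 10 chaperones on a log axis of CPM plus 10, with 1 point for each library in each of 11 classes (diamonds: Healthy/Tumor Border; circles: Whole Tumor; blue: Tumor 1; red: Tumor 2). The Krt+ tumor-like points lie lowest for Hspa1a, at 968 to 1641 CPM, and the B-like points lie highest for Hspd1.

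Cell classes differed in their chaperones. B-like cells were higher in 8 of 10 members (5 with at least 500 genes per barcode). Neutrophil-like cells were higher in 5 and lower in 2 (3 higher by DESeq2 or with library totals). In Tumor 1 alone they had 8 higher and 1 lower, and in Tumor 2 alone 1 higher and 5 lower. Krt+ tumor-like cells were lower in 5 members, all of them inducible, and higher in 3, both constitutive members and Hspb1. The higher members were 0 without barcodes that met another gate and 1 with library totals. Among macrophages, the C1q+ class was higher in 4 members (1 by DESeq2) and the alveolar class lower in 3 (1 without any single array of Whole Tumor 2, 7 in Tumor 2 alone).

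These counts are read against all genes of the same fit. In B-like cells 12.6% of the genes tested were higher and 18.2% lower, the median log2 difference was 1.27 for the members and -0.35 for all genes, and no member was lower (0 at an unadjusted p under 0.05, 0 by DESeq2). In neutrophil-like cells 29.3% of genes were higher and 17.3% lower, with medians of 0.43 and 0.01. In Krt+ tumor-like cells 21.1% were higher and 13.7% lower, with medians of -0.68 and -0.05. The backgrounds were 15.4% higher and 3.67% lower in C1q+ cells, where the members' median was 0.53. They were 17.6% and 9.01% in alveolar cells, with a median of -0.76. The alveolar class had no member higher and the C1q+ class none lower (0 at an unadjusted p under 0.05 and 0 by DESeq2 in each). For the satellite-transcript barcodes 32.2% of genes were higher and 9.73% lower, and Hspb1 was the 1 member called, higher by 1.17 ± 0.47 (SE). That call ended with no filter on low genes, by DESeq2 and without barcodes that met another gate, and Hspb1 had -0.48 in Tumor 1 alone. The share of higher genes among those called moved with the scaling, from 41.1% to 64.2% in B-like, 60.6% to 35.3% in Krt+, 66.1% to 77.4% in alveolar and 62.9% to 51.3% in neutrophil-like cells when library totals replaced TMM factors.

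**Figure D2:**
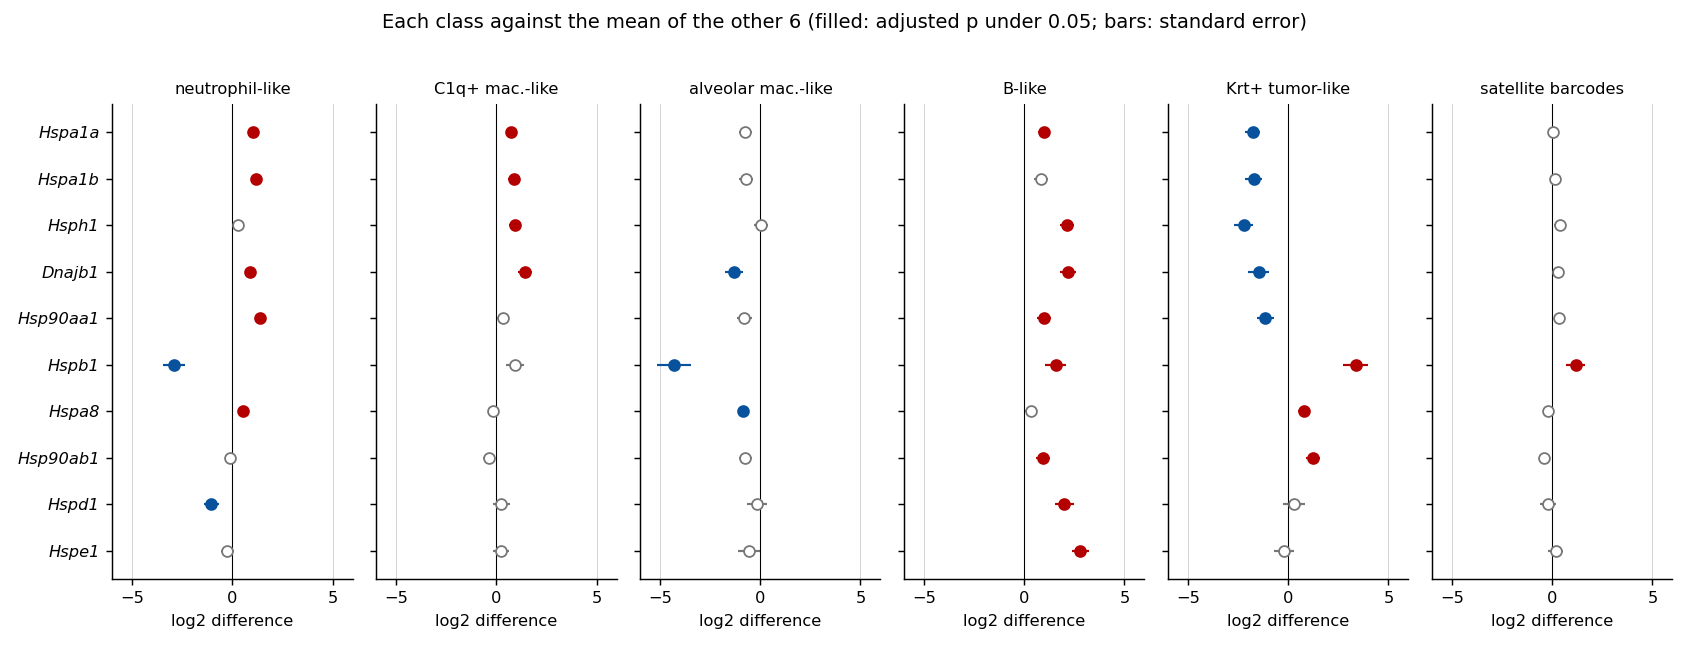
Log2 difference of each member (rows) in 6 of the 7 classes fitted (panels), each against the mean of the other 6, with standard errors; filled points have an adjusted p under 0.05, red for higher and blue for lower. The Krt+ panel splits, with Hspb1 at 3.37 and Hsph1 at -2.24.

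Among the strongly inducible cytosolic members, Hspa1a, the inducible Hsp70, averaged 1380 ± 361 CPM (SD, n = 3 libraries) in Krt+ tumor-like cells, the lowest mean of the classes fitted, and 10730 ± 5107 (n = 3) in B-like cells, the highest mean. Between them came alveolar cells at 2802 ± 566 (n = 4), C1q+ cells at 6379 ± 1184 (n = 5) and neutrophil-like cells at 8420 ± 3874 (n = 8). The order depends on which tumor a class came from, since B-like sums are from Tumor 2 alone and neutrophil-like sums stood at 10078 to 13759 CPM in Tumor 1 and 2409 to 7080 CPM in Tumor 2. Neighbours in this order overlapped from C1q+ upward, and the Krt+ sums, at 968, 1530 and 1641 CPM in arrays 1, 2 and 3 of Whole Tumor 1, did not overlap those of any other class. Neutrophil-like cells of these same 3 arrays held 10078, 11674 and 13759 CPM.

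In Krt+ cells the fitted log2 difference of Hspa1a was -1.79 ± 0.39 (adjusted p = 0.000294), and Hspa1b, its copy, had -1.74 ± 0.43 (adjusted p = 0.00131). Hsph1, the exchange factor, had -2.24 ± 0.48 (adjusted p = 0.000233) and Dnajb1, the J-domain partner, -1.49 ± 0.52 (adjusted p = 0.0224). All 4 stayed lower without the barcodes that met another gate, where Hspa1a had -3.52. The only Sftp+ tumor-like sum, 10 barcodes of array 2 of Whole Tumor 1, stood at 10060 CPM of Hspa1a against 1530 in the Krt+ cells of that array. It also held more neutrophil markers (5.07 against 0.722 UMIs per 10000), more immediate early UMIs (122 against 42.8 per 10000) and a larger mitochondrial share (22.0% against 11.2%). As 1 library it was not tested, and the part of those values in its Hspa1a level was not tested either.

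In B-like cells the levels differed by region. Hspa1a stood at 4875 CPM at the Border of Tumor 2 and at 13051 and 14264 CPM in arrays 1 and 3 of Whole Tumor 2. Hsph1 stood at 3151, 5020 and 4226 CPM in the same order, and Dnajb1 at 1605, 3627 and 4133 CPM. For Hsph1 these levels lay above those of all other classes, and for Dnajb1 they overlapped the highest macrophage and T or NK-like sums. The log2 difference to the mean of the other classes was 2.12 ± 0.36 for Hsph1 (adjusted p = 1.79e-05), 2.20 ± 0.4 for Dnajb1 (adjusted p = 5.45e-05) and 0.97 ± 0.31 for Hspa1a (adjusted p = 0.0162). Hspa1b, at 0.83 ± 0.35, missed the threshold (adjusted p = 0.0692). Within Tumor 2 alone Hsph1 (1.39) and Dnajb1 (1.58) stayed called and Hspa1a did not (0.57, adjusted p = 0.0894).

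Neutrophil-like cells were higher than the mean of the other classes in Hspa1a by 1.04 ± 0.21 (adjusted p = 4.63e-05), in Hspa1b by 1.19 ± 0.23 (adjusted p = 3.73e-05) and in Dnajb1 by 0.90 ± 0.28 (adjusted p = 0.00702). The Dnajb1 call ended in 3 of 8 fits that left out 1 library (0.54 to 1.52). Hsph1, at 0.30, missed the threshold (adjusted p = 0.382). These values average over tumors that differed. Fitted on Tumor 1 libraries alone, Hspa1a was at 1.95 (adjusted p = 1.9e-15), Hsph1 at 1.91 and Dnajb1 at 2.09, and on Tumor 2 alone they were at 0.20 (adjusted p = 0.542), -1.36 and -0.11 (adjusted p = 0.834). The other classes in these fits also differ between the tumors, and the difference between the fits was not tested. Immediate early genes moved beside these calls, with 10 of 12 higher in neutrophil-like cells (median 1.40; 8 higher and 1 lower with library totals) and 5 in Krt+ cells, and 5 of 12 lower in B-like and in alveolar cells and 1 higher in C1q+ cells. With library totals 3 were higher and 2 lower in Krt+ cells and 1 higher and 3 lower in B-like cells. The part of handling in the class values was not tested.

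Among macrophages, C1q+ cells were higher in all 4 strongly inducible members, with Hspa1a at 0.73 ± 0.26 (adjusted p = 0.0412), Hspa1b at 0.88 ± 0.28, Hsph1 at 0.92 ± 0.31 and Dnajb1 at 1.43 ± 0.35 (adjusted p = 0.00189). Dnajb1 stood at 3178 CPM in array 2 of Whole Tumor 1 and at 679 to 1438 CPM in the 4 other sums. Without that array 1 member was higher in the class, and likewise without array 2 of Whole Tumor 2. In Tumor 2 alone none of the 4 was called, with Hspa1a at 0.54 (adjusted p = 0.101). Alveolar cells were lower in Dnajb1, at -1.33 ± 0.45 (adjusted p = 0.0245), and Hspa1a had -0.75 ± 0.32 (adjusted p = 0.0724). Without array 1, 2 or 3 of Whole Tumor 2, or with at least 3 markers, neither Dnajb1 (adjusted p from 0.054 to 0.21) nor Hspa8 was called in this class, and Hspb1 alone stayed lower. In Tumor 2 alone, where all sums of the class lie, 7 members were lower, with Dnajb1 at -2.08 and Hspa1a at -1.11 (adjusted p = 0.00137), and 6 and 5 were lower without array 2 and array 3 of Whole Tumor 1.

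The other inducible members followed different classes. Hsp90aa1, the inducible cytosolic Hsp90, averaged 1103 ± 349 CPM (n = 8) in neutrophil-like and 1106 ± 189 CPM (n = 3) in B-like cells. Among the classes fitted these were the highest means, and the lowest were 240 ± 110 CPM (n = 3) in Krt+ and 339 ± 118 CPM (n = 4) in alveolar cells. The log2 differences were 1.40 ± 0.22 in neutrophil-like cells (adjusted p = 9.88e-07), 0.97 ± 0.35 in B-like cells (adjusted p = 0.0322) and -1.15 ± 0.41 in Krt+ cells (adjusted p = 0.0245). With 1 library left out in turn, the B-like call ended in 2 of 5 fits (0.71 to 1.04) and the Krt+ call in 1 of 5 (-1.18 to -0.92). Hsp90aa1 was the member higher in neutrophil-like cells in each tumor fitted alone, at 1.98 in Tumor 1 and 0.97 in Tumor 2 (adjusted p = 0.000717).

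Hspb1, the small chaperone, was nearly absent from neutrophil-like and alveolar macrophage-like cells and high in stroma. Neutrophil-like cells held 0 to 21.2 CPM in 8 libraries and alveolar cells 0 to 22.3 CPM in 4. Endothelial-like cells held 780 CPM (95% interval 253 to 1820) in array 2 and 3745 CPM (3182 to 4379) in array 3 of Whole Tumor 2, and fibroblast-like cells 1600 CPM (1250 to 2019) in array 3. These intervals are exact Poisson intervals and cover counting error only. After each barcode was thinned to 500 UMIs, a UMI of Hspb1 was found in 40.5% of 37 endothelial-like barcodes (exact interval 24.8% to 57.9%), 34.3% of 35 fibroblast-like barcodes (19.1% to 52.2%) and 0.144% of 1386 neutrophil-like barcodes (0.0175% to 0.52%), 5, 1 and 64 shallower barcodes being left out. Unthinned, the shares were 66.7%, 58.3% and 0.69%, at median depths of 1734, 2559 and 2189 UMIs. Neither stromal class had enough libraries for the fit. The log2 difference was -2.94 ± 0.55 in neutrophil-like cells (adjusted p = 1.97e-05) and -4.31 ± 0.85 in alveolar cells (adjusted p = 0.000136).

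In Krt+ cells Hspb1 stood at 334, 68.4 and 52.7 CPM in arrays 1, 2 and 3 of Whole Tumor 1, against 0, 0 and 21.2 CPM in neutrophil-like cells of the same arrays. The Krt+ cells were higher in each array, and array 1 stood apart from the others. The log2 difference of 3.37 ± 0.62 (adjusted p = 3.07e-05) was 0.32 (adjusted p = 0.819) without barcodes that met another gate. B-like cells, at 178, 291 and 655 CPM, were higher by 1.57 ± 0.52 (adjusted p = 0.0191).

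Of the constitutive cytosolic members, Hsp90ab1 had its highest class means in lymphoid and Krt+ cells. It stood at 6504 CPM at the Border and at 9165 and 8414 CPM in the Whole Tumor arrays in B-like cells, and at 8426 and 6174 CPM in the pair of T or NK-like sums of Tumor 2. Krt+ cells held 3863, 5442 and 3734 CPM, above the 2714, 3986 and 3561 CPM of neutrophil-like cells in the same arrays. Neutrophil-like cells averaged 2428 ± 987 CPM (n = 8), alveolar cells 2330 ± 716 CPM (n = 4) and C1q+ cells 2553 ± 849 CPM (n = 5), which are not apart beyond their spread. Hsp90ab1 was higher by 0.93 ± 0.33 in B-like (adjusted p = 0.0275) and by 1.22 ± 0.34 in Krt+ cells (adjusted p = 0.00501). Hspa8, the constitutive Hsp70, had class means from 672 ± 268 CPM (n = 4) in alveolar to 1824 ± 762 CPM (n = 3) in B-like cells among the classes fitted. It was higher in neutrophil-like (0.55 ± 0.19, adjusted p = 0.0139) and Krt+ cells (0.80 ± 0.3, adjusted p = 0.0374) and lower in alveolar cells (-0.85 ± 0.29, adjusted p = 0.027). B-like cells were not called for Hspa8 (0.35, adjusted p = 0.41). In the arrays of Whole Tumor 1, Krt+ cells held 783 to 1132 CPM of Hspa8, below the 1312 to 1339 CPM of neutrophil-like cells. In Krt+ cells neither constitutive call held without barcodes that met another gate (Hsp90ab1 0.67, Hspa8 0.16) or with library totals (0.71 and 0.28).

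The mitochondrial pair had its highest class means in B-like cells. Hspd1, the chaperonin, stood there at 701, 972 and 932 CPM, and its class means elsewhere among the classes fitted reached at most 219 ± 108 CPM (n = 5) in C1q+ cells. Hspe1, its lid, stood at 345, 777 and 517 CPM, above the means of 112 ± 58.2 CPM (n = 3) in Krt+ and 86.8 ± 78.4 CPM (n = 8) in neutrophil-like cells. Satellite-transcript barcodes averaged 129 ± 159 CPM (n = 7), and their highest sum, 477 CPM, lay above the lowest B-like sum. B-like sums of Hspd1 overlapped those of no other class. The log2 differences in B-like cells were 2.0 ± 0.47 for Hspd1 (adjusted p = 0.00118) and 2.80 ± 0.44 for Hspe1 (adjusted p = 4.96e-06). Hspd1 was lower in neutrophil-like cells, at -1.05 ± 0.37 (adjusted p = 0.0171), where Tumor 1 alone gave 0.42 (adjusted p = 0.188). That call ended in 4 of 8 fits that left out 1 library (-1.5 to -0.44).

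The share of inducible members puts these levels on 1 scale. It was taken as the UMIs of Hspa1a, Hspa1b, Hsph1 and Dnajb1 over those plus Hspa8 and Hsp90ab1, and as a score over the members it was given no test. Krt+ tumor-like cells had 28.3%, 33.3% and 39.0%, and every sum of every other class lay between 46.9% and 86.1%. T or NK-like cells came next, at 46.9% at the Border of Tumor 2 and 64.4% in array 3 of its Whole Tumor. C1q+ cells averaged 79.5 ± 4.39% (n = 5) and neutrophil-like cells 79.2 ± 7.56% (n = 8), with the neutrophil-like cells of the Border of Tumor 2, at 61.9%, below all 7 other libraries of that class.

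**Figure D3:**
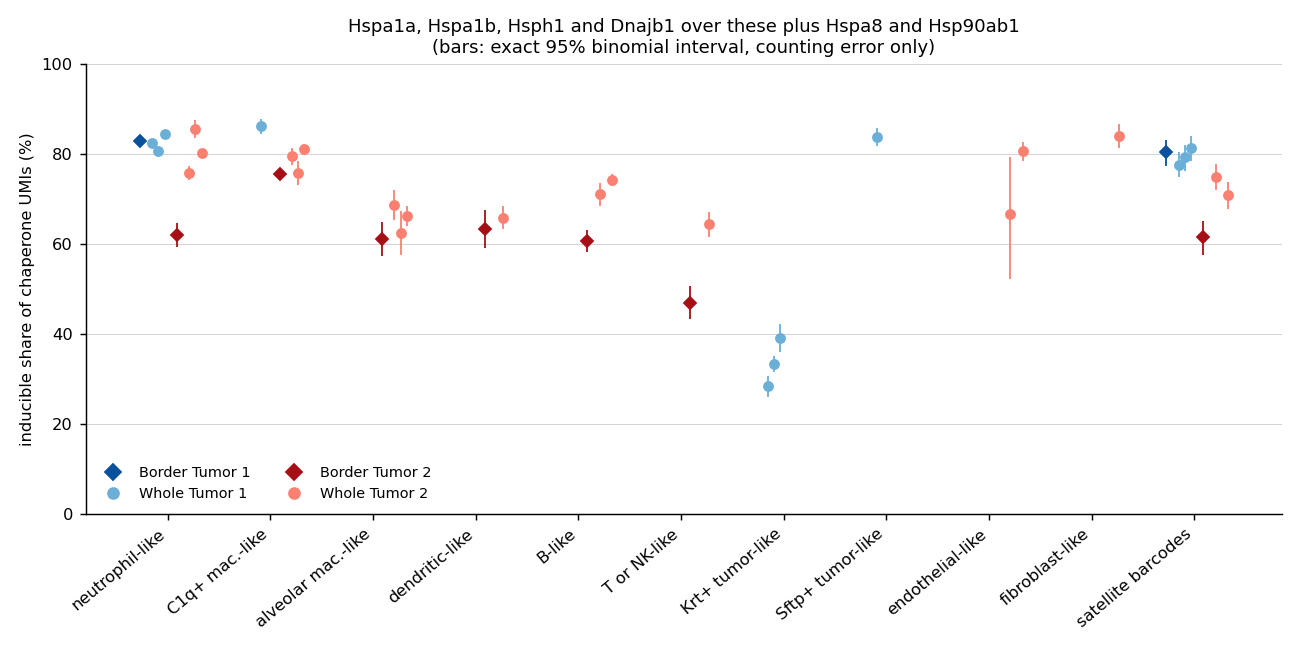
Share (%) of UMIs of the strongly inducible members among inducible and constitutive cytosolic members, with 1 point for each class and library and exact 95% binomial intervals that cover counting error only (symbols and colours by region and tumor). The Krt+ points, at 28.3 to 39.0%, lie below all others. The red diamond of Border Tumor 2 is the lowest point in every class that has one, in C1q+ cells only just (75.4% against 75.7%).

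Within a class the pair of inducible Hsp70 genes was spread unevenly over barcodes. Among barcodes of at least 1000 UMIs, the median of Hspa1a plus Hspa1b in neutrophil-like cells of Tumor 1 was 98.7 UMIs per 10000 at the Border while its arrays had medians of 70.8, 98.6 and 122. Tumor 2 had a median of 0 at the Border and of 10.3, 0 and 4.06 in its arrays. Barcodes with neither gene made up 20.1% at the Border of Tumor 1, 4.03% to 13.8% in its arrays, 59.8% at the Border of Tumor 2 and 37.8% to 61.1% in its arrays. The summed levels of Tumor 2 thus came from a smaller share of its neutrophil-like barcodes, and the highest 10% of barcodes held 42.9% to 48.8% of the pair's UMIs in Tumor 1 libraries and 59.7% to 91.7% in those of Tumor 2. The array with 91.7%, array 2 of Whole Tumor 2, had only 18 such barcodes. In B-like cells the Border of Tumor 2 had a median of 0, with 61.1% of 36 barcodes at 0, against 217 and 190 with 7.69% and 10.0% at 0. In C1q+ cells the Border of Tumor 2 had a median of 42.5, with 25.4% of 130 barcodes at 0, against medians of 79.0, 116 and 119 with 3.85% to 13.6% at 0 in the arrays. The Border thus lay outside the range of the arrays in this class also, which was not tested. In Krt+ cells 42.9% to 55.0% of barcodes had neither gene.

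**Figure D4:**
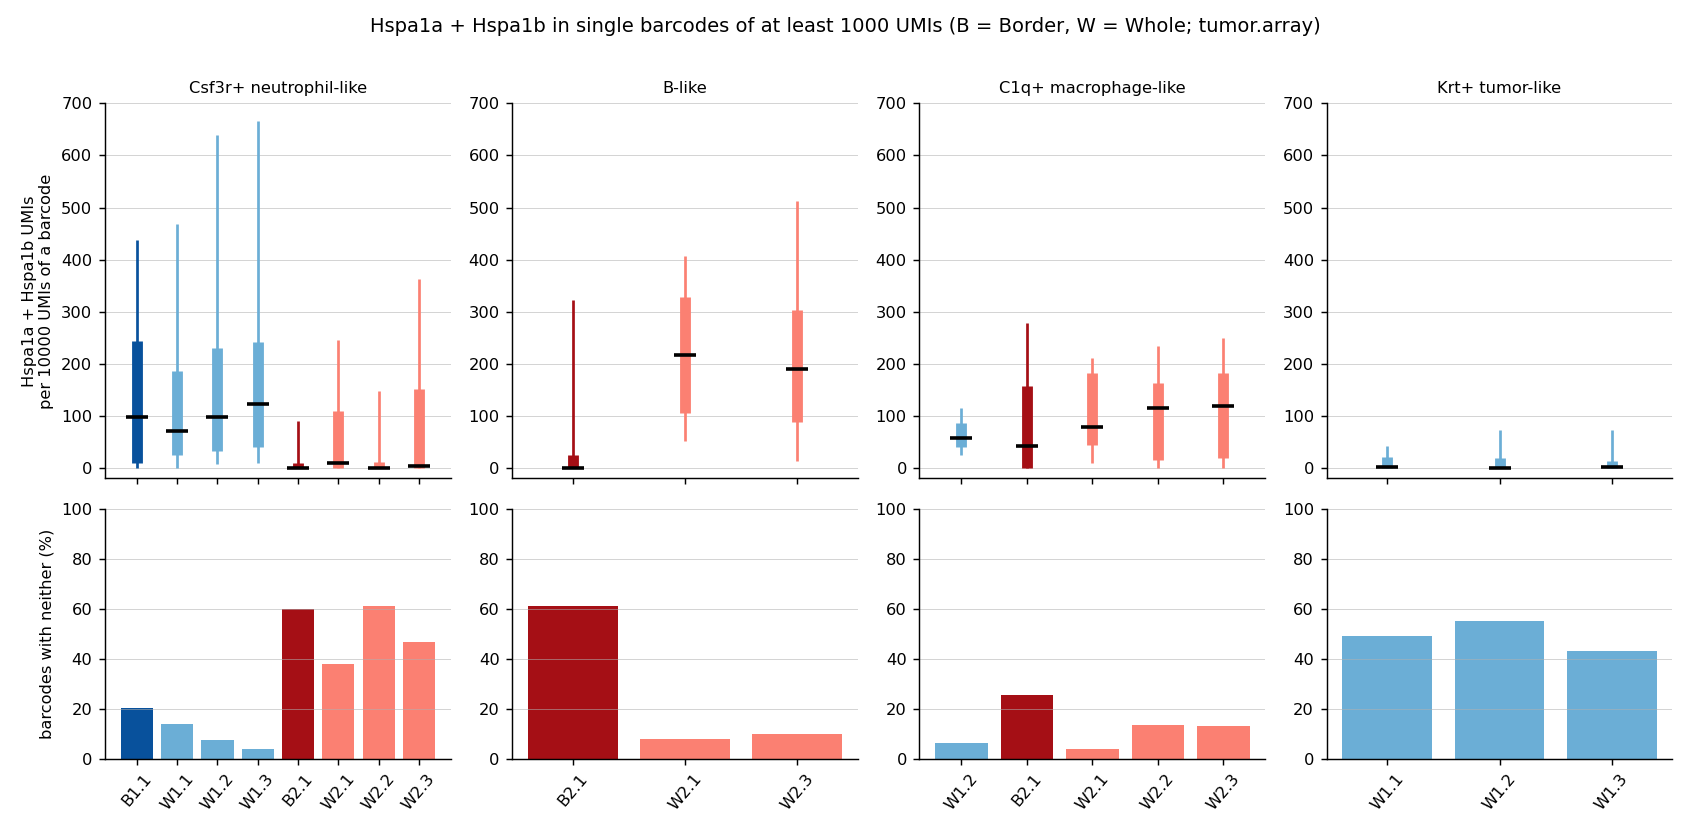
Hspa1a plus Hspa1b UMIs per 10000 UMIs of a barcode, over barcodes of at least 1000 UMIs in 4 classes (top: black tick, median; thick line, middle quartiles; thin line, 10th to 90th percentile), and the share (%) of those barcodes with neither gene (bottom bars). In Border Tumor 2 (B2.1) about as many neutrophil-like (59.8%) as B-like (61.1%) barcodes have neither.

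Thinned to 500 UMIs, a UMI of Hspa1a was found in 63.2% of neutrophil-like barcodes at the Border of Tumor 1 and 72.9% in its Whole Tumor, and in 22.8% (exact interval 14.7% to 32.8%) and 37.1% (32.4% to 42.0%) in Tumor 2. The unthinned shares were 73.4%, 85.3%, 31.5% and 44.8%, with 6, 4, 0 and 54 barcodes left out by thinning. No class lacked the gene, since the lowest share was 27.6% of Krt+ barcodes (46.3% unthinned), so a background from free RNA could not be set for Hspa1a.

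Whether the Healthy/Tumor Border differed from the Whole Tumor could be asked in both tumors for neutrophil-like cells alone among the cell classes. The answer differed between the tumors. In Tumor 2 the Border was lower in Hspa1a, Hspa1b, Dnajb1 and Hsp90aa1, and in Tumor 1 it was lower in Hsph1, with the other members uncalled. The fit of 8 libraries tested 6098 genes and 9 members, since Hspb1 was too low, and it takes the single Border library of a tumor to vary like the Whole Tumor arrays.

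In Tumor 2, Hspa1a stood at 2409 CPM at the Border and at 5178, 5876 and 7080 CPM in the Whole Tumor arrays. Hspa1b stood at 818 CPM against 3091, 3409 and 4121 CPM, and Dnajb1 at 343 CPM against 801, 585 and 1138 CPM. The Border lay below every array of its tumor for these members, as it did for Hsph1 (421 against 495 to 611 CPM) and Hsp90aa1 (508 against 832 to 1104 CPM). The log2 differences were -1.74 ± 0.28 for Hspa1a (adjusted p = 4.45e-05), -2.53 ± 0.31 for Hspa1b (adjusted p = 3.63e-07), -1.76 ± 0.34 for Dnajb1 (adjusted p = 0.000506) and -1.36 ± 0.3 for Hsp90aa1 (adjusted p = 0.00218). Hspa8 had -0.69 (adjusted p = 0.137), Hsph1 -0.77 (adjusted p = 0.105) and Hsp90ab1 -0.51, none of them called. Without the shallowest array, array 2 of Whole Tumor 2, these 3 were lower as well, at -0.90 (adjusted p = 0.0139), -0.86 (adjusted p = 0.0399) and -0.77 (adjusted p = 0.0298). Of all genes 5.49% were lower and 3.23% higher, and the share of higher genes among those called was 37%, or 78.9% with library totals, under which all 4 members stayed lower. No member was higher (0 at an unadjusted p under 0.05, 0 by DESeq2). With barcodes of at least 500 genes only Hspa1b stayed called, at -2.61 (adjusted p = 0.0341), and Hspa1a had -1.90 (adjusted p = 0.175).

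In Tumor 1, Hspa1a stood at 11306 CPM at the Border and at 10078, 11674 and 13759 CPM in the arrays, within their range. Hsph1 stood at 838 CPM against 2351, 2108 and 2955 CPM, outside it. Hsph1 was lower, at -1.02 ± 0.27 (adjusted p = 0.00758), while Hspa1a had 0.47 ± 0.24 (adjusted p = 0.226), Hspa1b 0.32 (adjusted p = 0.463) and Hspa8 0.64 (adjusted p = 0.109). Of all genes 7.48% were higher and 1.71% lower, a share of higher calls of 81.4%, or 15.5% with library totals, since the median of all genes moved from -0.06 to -0.62. No member was higher by edgeR or DESeq2 (1 at an unadjusted p under 0.05). The Hsph1 call ended with no filter on low genes (-0.93, adjusted p = 0.166), with at least 500 genes (-0.94, adjusted p = 0.404) and in barcodes without S100a8 and Retnlg, and library totals gave 2 members lower.

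The difference between the tumors was tested by itself. The log2 difference of Border to Whole was larger in Tumor 1 than in Tumor 2 by 2.21 ± 0.36 for Hspa1a (adjusted p = 1.2e-05), 2.85 ± 0.38 for Hspa1b (adjusted p = 2.19e-07), 2.23 ± 0.43 for Dnajb1 (adjusted p = 0.000205), 1.85 ± 0.39 for Hsp90aa1 (adjusted p = 0.000702) and 1.33 ± 0.38 for Hspa8 (adjusted p = 0.017). Hsph1, at -0.25, and Hsp90ab1, at 0.64, were not called. With barcodes of at least 500 genes none of the 5 calls held, at 2.38 for Hspa1a (adjusted p = 0.159) and 2.90 for Hspa1b (adjusted p = 0.057), nor did any in barcodes without S100a8 and Retnlg. Barcodes without these 2 genes were few in Tumor 2. The background was 7.79% higher and 2.98% lower, with 72.3% of calls higher, or 12.5% with library totals, under which Hspa1a, Hspa1b and Dnajb1 stayed higher. None was lower by TMM scaling (0 at an unadjusted p under 0.05, 0 by DESeq2), and library totals gave 1 lower, Hsph1 at -1.23 (adjusted p = 0.0133).

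Other genes moved beside these members. Neutrophil-like cells expressed all 8 of their markers in every library, at 96.6 UMIs per 10000 at the Border and 90.3 to 106 in the Whole Tumor arrays of Tumor 1, and at 140 and 268 to 300 in Tumor 2. Barcodes with a UMI of S100a8 or Retnlg, both among the markers of the gate, made up 55.6% at the Border and 47.7% to 52.6% in the arrays of Tumor 1, and 70.7% and 75.8% to 91.5% in Tumor 2. Among the barcodes with S100a8 or Retnlg alone, Hspa1a had -2.09 and Hspa1b -3.08 at the Border of Tumor 2, with 5 members lower. Among those without, Hspa1a had -0.89 (adjusted p = 0.38) and Hspa1b -1.50 (adjusted p = 0.0607), and no member was called. In Tumor 2 such barcodes were the smaller part of 92 at the Border and of 94, 149 and 226 in the arrays. With so few, the lack of a call does not show that the difference was absent.

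The 12 immediate early genes, which respond to handling and to signals alike, were set beside them. At the Border of Tumor 1, 11 of 12 were higher, with Dusp1 at 2.73 and Ier3 at 2.53, and at the Border of Tumor 2, 8 of 12 were lower, with Fos at -2.47 and Nr4a1 at -1.82. They made up 202 UMIs per 10000 at the Border of Tumor 1 against 76.7 to 84.2 in its arrays, and 166 against 256 to 273 in Tumor 2. The difference between the tumors was called for all 12, with Dusp1 at 4.36. In Tumor 1 they were thus called higher where none of the 9 members tested was, and in Tumor 2 both sets had lower members. The part of handling, and of the makeup of the gate, in the chaperone values was not tested.

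**Figure D5:**
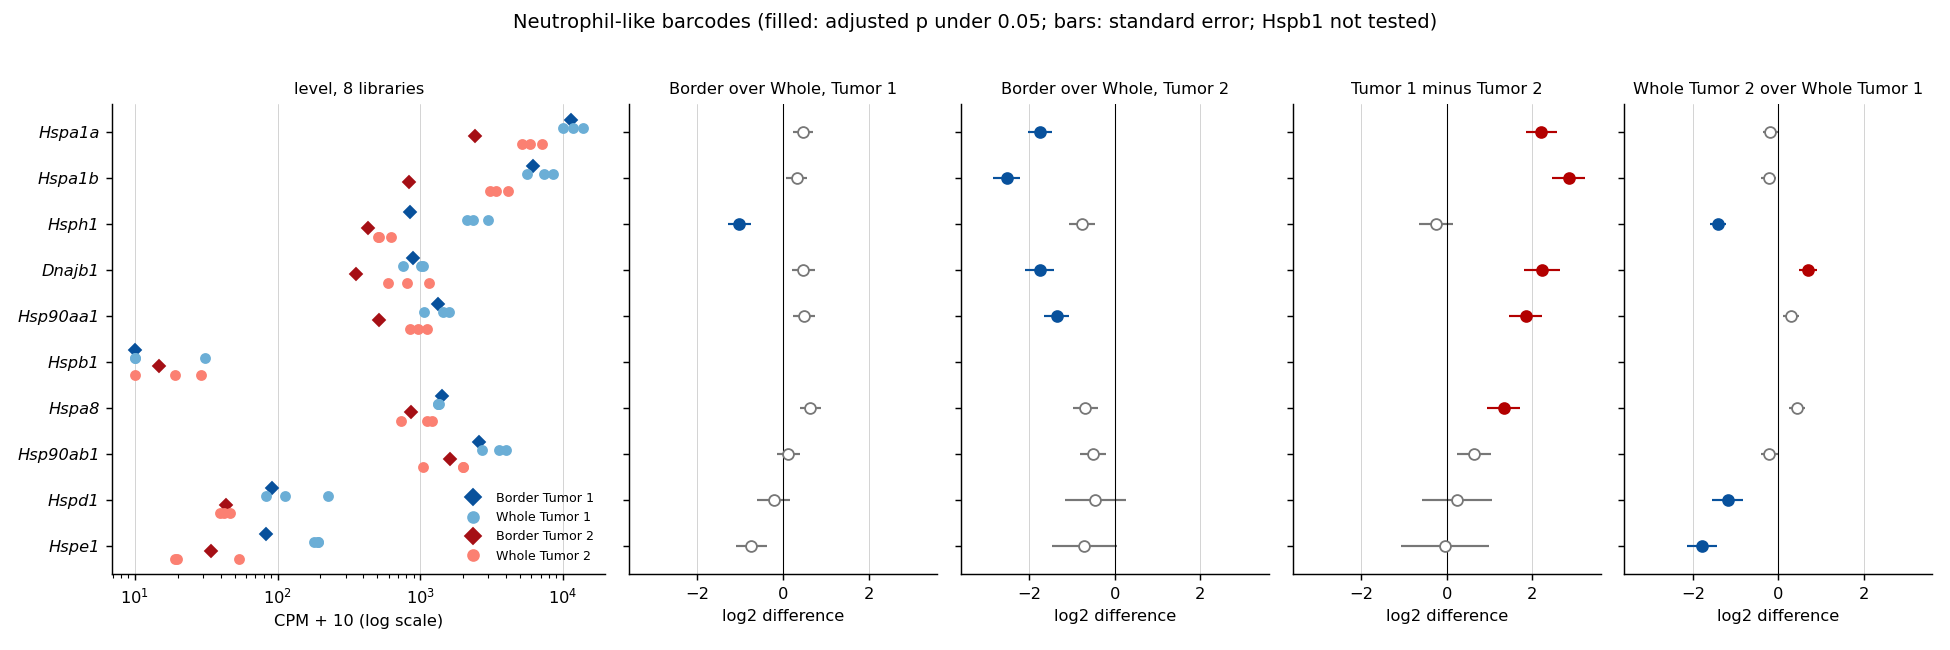
Neutrophil-like cells. Left panel, CPM plus 10 of each member in 8 libraries on a log axis (symbols and colours by region and tumor). Other panels, log2 differences with standard errors for Border over Whole in each tumor, their difference, and Whole Tumor 2 over Whole Tumor 1, with filled points for an adjusted p under 0.05 (Hspb1 was not tested). The Tumor 2 Border points for Hspa1a (2409 CPM) and Hspa1b (818 CPM) lie left of all others.

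Between the Whole Tumor arrays of the 2 mice, neutrophil-like cells of Tumor 2 were lower in Hsph1, at -1.41 ± 0.19 (adjusted p = 3.76e-08), Hspd1, at -1.19 ± 0.37 (adjusted p = 0.00844), and Hspe1, at -1.79 ± 0.36 (adjusted p = 5.91e-05), and higher in Dnajb1, at 0.69 ± 0.2 (adjusted p = 0.0053). Hsph1 stood at 495 to 611 CPM in the arrays of Tumor 2 and at 2108 to 2955 CPM in those of Tumor 1, with no overlap. Hspa1a also stood apart in CPM, at 5178 to 7080 against 10078 to 13759, yet its fitted log2 difference was only -0.19 ± 0.17 (adjusted p = 0.376). The median of all genes was -0.23 with TMM factors and -1.05 with library totals, under which 7 members were lower, Hspa1a at -0.99, none was higher, and Dnajb1 had -0.12. All genes split into 22.6% higher and 21.5% lower, and 51.3% of calls were higher against 17.7% with library totals. All 12 immediate early genes were higher in Tumor 2, with Fosb at 6.54 and Fos at 3.96.

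In the other cell classes the Border could be set against the Whole Tumor in Tumor 2 alone. Satellite-transcript barcodes, which are not a cell type, held 2170 CPM of Hspa1a at that Border and 4624 to 5634 CPM in the arrays. In Tumor 1 they held 3937 against 3953 to 5855 CPM. All kept barcodes together held 4548 against 5679 to 6888 CPM in Tumor 2 and 10727 against 5868 to 7555 CPM in Tumor 1. None of these was tested. B-like cells of the Border were lower in Hspa1a, at -1.55 ± 0.29, and Hspa1b, at -1.76 ± 0.33 (adjusted p = 9.54e-05 for each), with Dnajb1 at -1.34 ± 0.35 (adjusted p = 0.0562). This fit holds 3 libraries and 1 residual degree of freedom, and with no filter on low genes neither was called, at -1.41 ± 0.57 and -1.62 ± 0.53 (adjusted p = 0.921 for each). Of 2184 genes tested 0.137% were lower and 0.0458% higher, with 25% of calls higher, or 37.5% with library totals. No member was higher (0 at an unadjusted p under 0.05, 0 by DESeq2). Border B-like cells held 24.1 UMIs of the B-like markers per 10000, against 20.4 and 24.6 in the arrays, and 7.01 of the C1q+ markers, 2 of 8 detected with C1qa, C1qb and C1qc at 0, against 0.972 and 0.83. Their immediate early UMIs were 71.2 per 10000 against 86.8 and 112. The part of these in the difference was not tested.

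C1q+ macrophage-like cells gave no call between Border and Whole Tumor 2. Hspa1a stood at 6271 CPM at the Border and at 6636, 7346 and 7229 CPM in the arrays, and Hspa1b at 3180 against 3686, 3517 and 4738 CPM. The Border was the lowest of the libraries for both, by less than the range over the arrays. Hspa1a had a log2 difference of -0.27 (adjusted p = 0.849) and Hsph1 0.61 (adjusted p = 0.539). edgeR called 0 members, with 0 at an unadjusted p under 0.05 and 0 by DESeq2, and 0.283% of 2829 genes higher and 0.106% lower. In alveolar macrophage-like cells, with 13 barcodes at the Border, the regions were not tested. All 10 members made up 1.21% of their UMIs at the Border, above the 0.857%, 0.636% and 0.922% of the arrays of Whole Tumor 2. Their Hspa1a stood at 3327 CPM at the Border against 2009 to 3037 CPM, and Hspa1b at 2235 against 961 to 1295 CPM, both above every array. Hsph1 and Dnajb1 lay within the range of the arrays. Their inducible share was lower at the Border, at 61.1% against 62.5% to 68.7%, while Hsp90ab1 stood higher, at 3343 against 1659 to 2188 CPM. Dendritic-like cells, with 1 library in each region, had Hspa1a at 3704 CPM at the Border and 3871 CPM in array 3 of Whole Tumor 2. T or NK-like cells had 1 library in each region, with no test. Their Hspa1a stood at 3274 CPM at the Border and 5457 CPM in array 3 of Whole Tumor 2, Hspa1b at 1351 and 4688 CPM, Hsph1 at 2587 and 1767 CPM and Hsp90ab1 at 8426 and 6174 CPM. Hspa1b was thus lower at the Border and Hsph1 and Hsp90ab1 were not, and immediate early UMIs were 64.1 against 142 per 10000.

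The rest of the chaperone network was read from fixed lists, beside the class counts above. Of 8 subunits of TRiC, the cytosolic chaperonin that folds actin and tubulin, 7 were higher in Krt+ cells (Cct6a 1.86, Cct2 1.76) and 6 in B-like cells (Cct3 1.77, Cct4 1.55). All 8 were lower in neutrophil-like cells (Cct3 -1.69, Tcp1 -1.32). Of all genes 21.1% were higher in Krt+ and 12.6% in B-like cells, and 17.3% were lower in neutrophil-like cells. Of 14 chaperones of the endoplasmic reticulum, which fold secreted and membrane proteins, 13 were higher in C1q+ cells (15.4% of all genes), with Sdf2l1 at 2.64, Creld2 at 1.63 and Hspa5 at 1.52, and 7 in alveolar cells (17.6%), with Sdf2l1 at 3.06. In B-like cells 6 were lower (18.2%), and in neutrophil-like cells 6 were lower (17.3%) and 1 higher. B-like cells, the class with the most members higher, thus had TRiC subunits higher and part of the reticulum list lower. With library totals no called gene of these lists changed sign, but 4 TRiC subunits were higher in Krt+ and 8 in B-like cells, and of the reticulum list 1 was lower in B-like and 11 were higher in alveolar cells.

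Among HSF1 and the co-chaperones, 19 of the 25 listed genes were tested across classes. B-like cells were higher in 9, against 12.6% of all genes, with Cacybp at 2.39, Stip1, which bridges Hsp70 and Hsp90, at 2.09, and Ahsa1, an activator of Hsp90, at 1.83. Krt+ cells were higher in 5 (21.1% of all genes), with the Hsp90 co-chaperone Cdc37 at 2.21, and lower in 1 (13.7%), Chordc1 at -1.48, counts that became 1 and 4 with library totals. Neutrophil-like cells were higher in 4 (29.3% of all genes), with the ubiquitin gene Ubb at 1.29 and the J-domain gene Dnaja1 at 1.57, and lower in 6 (17.3%), with Fkbp4 at -1.32. Apart from B-like cells, the counts of higher genes lie near or under the share of all genes. C1q+ cells were higher in 2 (15.4% of all genes), Bag3, an Hsp70 co-chaperone and HSF1 target, at 2.60, and Dnajb4, at 1.11, and lower in 1 (3.67%), Fkbp4 at -1.29. At the Border of Tumor 2 the same list had 2 of 20 genes lower in neutrophil-like cells, against 5.49% of all genes, Bag3 at -3.13 (adjusted p = 0.00661) and Dnaja1 at -1.45 (adjusted p = 0.003). In Tumor 1 it had 1 higher (7.48% of all genes) and 1 lower (1.71%), Fkbp4 at -1.55. For the difference between the tumors it had 4 higher (7.79%), with Bag3 at 3.43, and 1 lower (2.98%), Chordc1 at -2.52. Of the 4 mitochondrial chaperones and proteases tested, Trap1 (-1.24) and Grpel1 (-0.84) were lower in neutrophil-like cells and higher in alveolar cells (1.83 and 1.34). Hspa9 was higher in B-like cells (0.83) and lower in satellite-transcript barcodes (-0.95), and Lonp1 was higher in Krt+ cells (1.27).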

How the data were processed

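The authors demultiplexed reads with bcl2fastq 2.17.1.14, aligned them to mm10 with STAR 2.5.2b by the Drop-seq protocol and deposited raw UMI counts for each gene and barcode of the 8 arrays. Barcodes under 200 genes (449) were left out, as the methods state, and the mapping of each table to a sample follows the labels. A barcode joined the class with most distinct markers, at least 2, with ties left ungated (546 barcodes), and UMIs were summed per class and library. A marker shared by free RNA or doublets can move a barcode between classes, and Scrublet, run by scanpy 1.11.5, called 57 doublets (1.46%), which were kept. Sums were tested with edgeR 4.0.16 in R 4.3.3 (TMM, filterByExpr, quasi-likelihood F test, Benjamini-Hochberg over all genes tested, threshold 0.05), with the library as a block between classes and with 1 mean per tumor and region within a class. The fits left 20 residual degrees of freedom between classes, 4 for neutrophil-like, 2 for C1q+ and 1 for B-like cells. Cells were not taken as replicates, as the study's own test does. The precision of a sum follows its UMIs, and intervals cover counting error only.

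Errors with ± are SE on the log2 scale and SD over libraries in CPM. The Whole Tumor arrays differed beyond sampling noise (chi-square over its degrees of freedom 2.03 to 3.56), so each was 1 replicate. In simulated counts where 200 genes had been changed by 4-fold, 71.4% of them were recovered for the Border of Tumor 2 and 45% for the difference between tumors, each in neutrophil-like cells, and 87.8% for Krt+ cells. The text names all 10 members, up to 4 called genes of each other list with the largest change, and the 5 genes whose levels were most like the inducible members. Members and lists were chosen with earlier results of these data known. Alternatives were DESeq2 1.42.0 and its size factors, library totals, no filter, stricter gates and cell filters, doublets left out, libraries left out in turn and 1 tumor or region alone. A split of neutrophil-like barcodes by S100a8 or Retnlg, and a fit without satellite barcodes, were chosen after seeing the data. Gene positions are from GENCODE M21 (GRCm38) and promoters from RefSeq (GRCm38.p6). Of the 12 classes, 1 that entered the fits is not reported here, nor is part of the genotype.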

Additional observations from a re-analysis of the deposited data

Results flagged for a closer look

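The Border against Whole Tumor difference in neutrophil-like cells differed between the tumors, by a test of that difference itself, for 5 members. The log2 difference was larger in Tumor 1 by 2.21 for Hspa1a, 2.85 for Hspa1b, 2.23 for Dnajb1, 1.33 for Hspa8 and 1.85 for Hsp90aa1 (edgeR quasi-likelihood test, adjusted p from 2.19e-07 to 0.017). None of the 5 was called with at least 500 genes, where the differences were 1.30 to 2.90, or in barcodes without S100a8 and Retnlg, where they were 0.19 to 1.69, and 3 were with library totals. Barcodes without S100a8 and Retnlg were few in Tumor 2. For each of them the single Border library of Tumor 2 had a lower fitted level than its arrays. That of Tumor 1 had a higher one with TMM factors, but with library totals Hspa1a had -0.09, Hspa1b -0.24, Dnajb1 -0.09, Hsp90aa1 -0.07 and Hspa8 0.08. Hspa8 was not called in either tumor alone. Each tumor is 1 mouse with 1 Border library, so mouse, sex and the handling of a library cannot be told apart from tumor.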

How the results depend on the processing

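Of the tested values of single members under the alternatives, 1716 kept their side of the threshold, 133 were no longer called, 71 became called and 10 that were called in either setting reversed. Values called in neither setting may have changed sign and are not counted as reversed. The cause was not tested unless stated. Reversed were Hsph1 in alveolar cells (-0.67 in Tumor 2 alone), Hspa1a (-0.51 with no filter) and Hspb1 (-0.48 in Tumor 1 alone) in satellite-transcript barcodes, and in neutrophil-like against other cells Hsph1 (-1.36) and Dnajb1 (-0.11) in Tumor 2 alone and Hsp90ab1 (0.56), Hspd1 (0.42) and Hspe1 (1.09) in Tumor 1 alone. Between the Whole Tumors, Dnajb1 (-0.12) and Hsp90aa1 (-0.51) reversed with library totals, which move the median of all genes. Counts of members follow. In alveolar cells 1 was lower with at least 3 markers and 7 in Tumor 2 alone. In B-like cells 5 were higher with at least 500 genes. In C1q+ cells 2 were higher with DESeq2's size factors, with at least 500 genes or in the Whole Tumor arrays alone, and 1 by DESeq2 or in Tumor 2 alone. In neutrophil-like cells 3 were higher with DESeq2's size factors, library totals or DESeq2, 8 in Tumor 1 alone and 1 in Tumor 2 alone, and 1 was lower with no filter, at least 3 markers, Tumor 1 or the Whole Tumor arrays alone and 5 in Tumor 2 alone. In Krt+ cells 1 was higher with library totals and 0 without barcodes that met another gate. In satellite-transcript barcodes 0 were higher with no filter, DESeq2 or without barcodes that met another gate, 2 in Tumor 1 alone and 3 in the Whole Tumor arrays alone, and 4 were lower with no filter, 1 with at least 3 markers and 2 in Tumor 1 alone. At the Border of Tumor 1 in neutrophil-like cells 2 were lower with library totals and 0 with no filter, at least 500 genes or barcodes without S100a8 and Retnlg, and at that of Tumor 2, 1 with at least 500 genes and 0 in barcodes without S100a8 and Retnlg. For the difference between the tumors 3 were higher and 1 lower with library totals, and 0 were higher with at least 500 genes or in barcodes without S100a8 and Retnlg. Between the Whole Tumors 7 were lower and 0 higher with library totals, 0 were higher by DESeq2, with at least 500 genes, without barcodes that met another gate or on either side of the S100a8 and Retnlg split, 2 with at least 3 markers, and 1 was lower in barcodes without S100a8 and Retnlg. In B-like cells 0 were lower at the Border of Tumor 2 with no filter. With Hsp90aa1 and Hspb1 among the inducible members the share in neutrophil-like cells was 83.7% at the Border of Tumor 1 and 64.7% at that of Tumor 2, where at least 3 markers gave 59.1%, at least 500 genes 57.4% and leaving out barcodes that met another gate 67.0%.

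Leaving out 1 library at a time gave 1 to 6 members lower in alveolar cells (6 without array 2 and 5 without array 3 of Whole Tumor 1, 1 without each array of Whole Tumor 2), 6 to 9 higher in B-like cells, 1 to 5 in C1q+ cells (2 without array 1 or 3 of Whole Tumor 1), 4 to 6 higher and 1 to 2 lower in neutrophil-like cells (1 without array 1 of Whole Tumor 1, Border Tumor 2, or array 1 or 3 of Whole Tumor 2), 2 to 3 higher and 4 to 5 lower in Krt+ cells and 0 to 3 higher in satellite-transcript barcodes (3 without Border Tumor 2, 0 without array 1 or 3 of Whole Tumor 2). Between regions it gave 0 to 1 higher and 1 lower in Tumor 1, 4 to 7 lower in Tumor 2 (7 without the shallowest array) and 4 to 6 for their difference, and between the Whole Tumors 0 to 3 higher (2 without Border Tumor 2, 3 and 0 without array 2 and array 3 of Whole Tumor 2) and 2 to 3 lower. A fit without a Krt+ or B-like library was not run for that class, which then has under 3 libraries. The T or NK-like fit left no residual degree of freedom and was not run. The array numbers do not pair the samples, as correlations of deviations lay between -0.02 and 0.02. With the array number as a replicate block, 1 member was higher and 3 were lower between the Whole Tumors, and 2202 genes were called against 2693 without it.

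Counts over all genes moved more. Against a main count of 560 at the Border of Tumor 1, 532 at that of Tumor 2, 657 for their difference and 2693 between the Whole Tumors, barcodes without S100a8 and Retnlg gave 95, 61, 100 and 579 and DESeq2 273, 304, 319 and 1774. At least 500 genes gave 277, 192 and 260 for the first 3, and library totals gave 1130 for Tumor 1 and 1351 for the difference. Without barcodes that met another gate the counts were 937 against 1848 in Krt+, 569 against 1013 in C1q+, 1447 against 2474 in neutrophil-like and 840 against 2230 in satellite-transcript barcodes. Tumor 1 alone gave 3285 in Krt+ cells, and alveolar cells had 843 against 1413 without array 3 of Whole Tumor 2. For the Border of Tumor 2 the counts ran from 1 to 45 around 11 in C1q+ and from 1 to 8 around 4 in B-like cells.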

Other observations

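Over the 42 sums of a class in a library, the genes outside the members whose log2(CPM + 10) was most like that of the summed strongly inducible members were Ccnl1 (Pearson r 0.671), Crebbp (0.64), Smg1 (0.636), Jak1 (0.634) and Dnaja1 (0.616), among 2625 genes. Of the members outside that sum, Hsp90aa1 ranked 11 (0.573), Hspe1 45 (0.513) and Hspa8 55 (0.492), whereas Hspd1 ranked 339, Hsp90ab1 369 and Hspb1 871. The sums share libraries and differ in depth, so these are descriptions only.

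The inducible Hsp70 was also found in the 546 barcodes that met no gate. Thinned to 500 UMIs, 62.3% of 491 of them had a UMI of Hspa1a (exact interval 57.9% to 66.6%, 72.0% unthinned, 55 left out) and 2.44% one of Hspb1.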
